A study of Mus musculus with 6 samples.

Results

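The B, T and NK lymphocyte markers are 34 genes chosen by symbol from the 45777 genes of the deposited count table. They comprise 11 genes of B cells, 2 of antibody-secreting plasma cells, 13 of T cells, and 8 of natural killer (NK) and other cytotoxic cells. The question asked of them was whether their transcripts differed between brown adipose tissue of mice given ginsenoside Rb2 and of mice given PBS, and whether the B and T cell signals tracked each other from library to library. Both groups were male wild type C57Bl6/J mice, injected into the peritoneum for 2 weeks with PBS in one group and with Rb2, a saponin of ginseng, in the other. Each group has 3 libraries from 3 mice. The sources used here give neither the dose nor the age of the mice, and neither group carried a further allele or agent.

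Lymphocytes recognise antigen through receptors that they build by rearranging gene segments. B cells display an immunoglobulin whose signal is passed on by the CD79A and CD79B chains, and T cells display a T cell receptor that signals through the CD3 chains. NK cells lack rearranged receptors and kill through granules of perforin and granzymes, as CD8 T cells do. In adipose tissue these cells lie among adipocytes, vessels and macrophages, and they also arrive with blood and with any lymph node that is taken along with the depot. The tissue was measured whole, so fewer cells of a type and less RNA per cell cannot be told apart.

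Total counts per library ran from 83642183 to 92666780, and a count of 0 allows up to 3 counts, at most 0.0370 CPM (read counts scaled to a common TMM-adjusted library size). This limit covers counting error only. Ucp1, which marks brown adipocytes, was between 247994 and 466691 counts in every library. The libraries differed in skeletal muscle transcripts. A list of 15 muscle genes, a part of all muscle transcripts, made up 0.222% and 0.760% of the counts in PBS 1 and PBS 2 and at most 0.0411% in the other 4 libraries. The numbers of the libraries are those of the table's columns.

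None of the 34 lymphocyte genes passed the test between Rb2 and PBS. The filter on low counts left 29 of them in the edgeR quasi-likelihood test, where 10.4% of the 16707 tested genes passed at a Benjamini-Hochberg adjusted p under 0.05, 5.11% lower and 5.33% higher with Rb2. Blk, Cr2, Mzb1, Cd5 and Foxp3 were too low to be tested. At an unadjusted p under 0.05 there were 4 lymphocyte genes (Cd79b, Fcmr, Gata3 and Ncr1), all lower with Rb2, or 13.8% of those tested against 14.6% of all genes on that side. The DESeq2 Wald test called 1 gene, Ighm (log2 fold change -1.28, adjusted p = 0.00654), and limma-voom called 0, with 5 at an unadjusted p under 0.05. DESeq2 gave no adjusted p for some genes with few counts, among them Fcmr, Ighd, Cd22 and Cd3d. The 3 libraries of each group did not overlap in 8 of the 29 genes (27.6%), all of them lower with Rb2, where 17.6% of all tested genes were separated in that direction. No lymphocyte gene was separated in the other direction, where 18.2% of all genes were. Of the 29 genes, 24 had a fold change below 0 and 5 above it, with a median of -0.53 on the log2 scale against -0.01 over all tested genes.

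Counts behind these comparisons were small. Leaving out Ighm, the 34 genes together had between 629 and 1092 counts in a library, and 28 of the 34 had under 300 counts over all 6 libraries. The standard error (SE) of a log2 fold change ran from 0.30 to 0.93. Only differences well above that size could be told from the spread between these libraries.

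**Figure D1:**
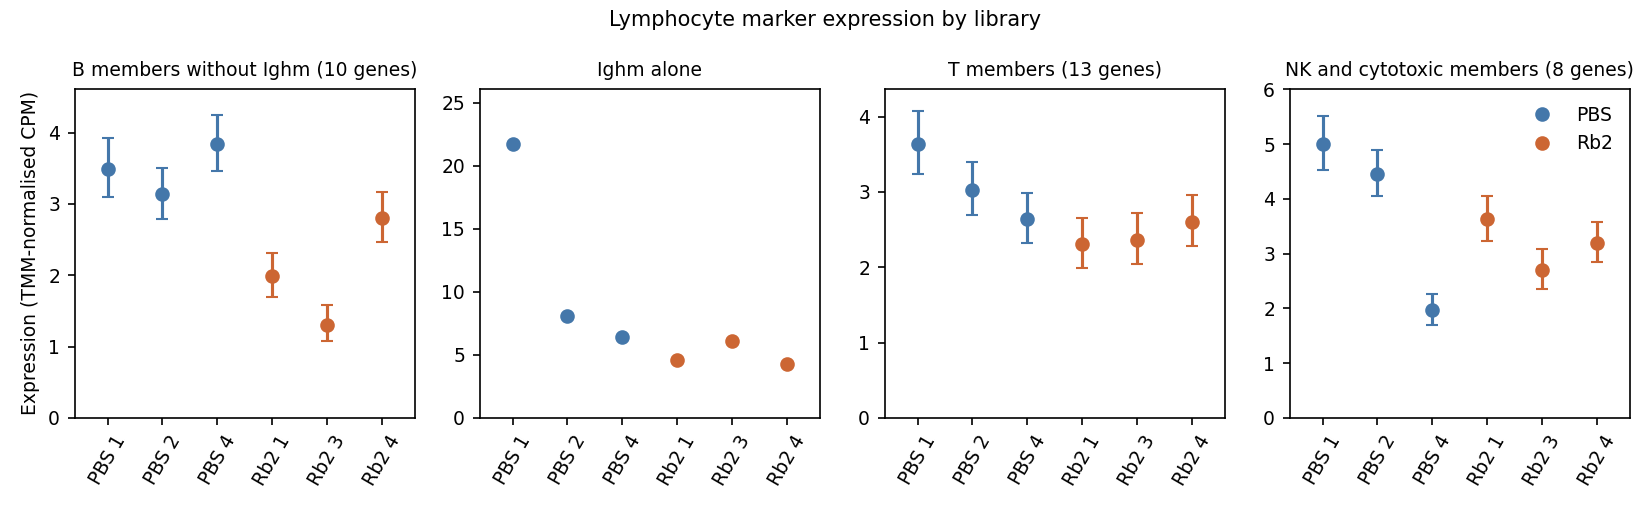
Summed expression of the lymphocyte genes by library, in TMM-normalised CPM on the vertical axis, for 10 B cell genes without Ighm, for Ighm alone, for 13 T cell genes and for 8 NK and cytotoxic genes; bars are 95% Poisson intervals of the summed counts. The 3 Rb2 libraries lie below the 3 PBS libraries for B cell genes, and PBS 4 has the lowest NK sum, 1.96 CPM.

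All 9 tested B cell genes had a fold change below 0, with a median of -0.87 on the log2 scale, and none passed the threshold. The summed expression of the B cell genes other than Ighm was 3.49, 3.13 and 3.84 CPM in PBS 1, 2 and 4. In Rb2 1, 3 and 4 it was 1.98, 1.31 and 2.80 CPM. The 2 groups did not overlap, with means of 3.49 ± 0.355 and 2.03 ± 0.746 CPM (SD, n = 3 each), a difference of -41.8%. The lowest PBS library and the highest Rb2 library had overlapping counting intervals, 2.79 to 3.51 CPM in PBS 2 and 2.47 to 3.16 CPM in Rb2 4.

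Cd79a and Cd79b, the 2 signalling chains of the B cell receptor, both had groups that did not overlap. Cd79b (gene 15985; chromosome 11, 106311341 to 106314562 in GRCm38.p6) had 44, 68 and 65 counts with PBS and 27, 19 and 35 with Rb2. Its expression was 0.637 ± 0.0838 CPM with PBS and 0.309 ± 0.0745 CPM with Rb2 (SD, n = 3 each), with every Rb2 library below every PBS library. The log2 fold change was -1.04 ± 0.35 SE and did not pass (edgeR adjusted p = 0.0841), the smallest adjusted p among the lymphocyte genes. Cd79a (gene 12518; chromosome 7, 24897497 to 24901858) had 41, 60 and 43 counts with PBS and 13, 22 and 40 with Rb2. Its groups were separated by a narrow margin, since Rb2 4 at 0.432 CPM lay just under PBS 4 at 0.440 CPM, and the fold change did not pass (-0.87 ± 0.44 SE, edgeR adjusted p = 0.210).

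The sequence before the start of Cd79a is given below beside those of the CD3 genes, since these chains define the B and T lineages. The sequences come from RefSeq on GRCm38.p6 and run 5′ to 3′ on the gene's own strand. The windows searched hold the 250 bases upstream of a transcript start, and only bases outside the annotated gene are printed. These are chr7:24897247-24897496 on the plus strand, chr9:44981536-44981768 on the plus strand, chr9:45009664-45009861 on the minus strand and chr9:44980432-44980681 on the minus strand. Capitals mark matches, on either strand, to AGGAAG, a motif of ETS family factors, and to AGATAA, a motif of GATA factors.
Cd79a: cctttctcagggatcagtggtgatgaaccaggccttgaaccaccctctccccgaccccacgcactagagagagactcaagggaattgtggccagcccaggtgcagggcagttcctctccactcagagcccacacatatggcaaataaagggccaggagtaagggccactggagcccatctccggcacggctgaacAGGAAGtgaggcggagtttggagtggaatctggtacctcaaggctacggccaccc
Cd3d: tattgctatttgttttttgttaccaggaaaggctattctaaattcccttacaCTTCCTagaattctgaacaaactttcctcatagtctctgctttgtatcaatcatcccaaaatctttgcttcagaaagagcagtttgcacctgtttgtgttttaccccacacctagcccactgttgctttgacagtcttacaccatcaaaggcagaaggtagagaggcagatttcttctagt
Cd3e: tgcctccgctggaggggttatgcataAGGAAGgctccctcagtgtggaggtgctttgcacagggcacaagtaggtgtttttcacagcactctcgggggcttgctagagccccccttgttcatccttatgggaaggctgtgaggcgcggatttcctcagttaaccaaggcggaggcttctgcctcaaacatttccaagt
Cd3g: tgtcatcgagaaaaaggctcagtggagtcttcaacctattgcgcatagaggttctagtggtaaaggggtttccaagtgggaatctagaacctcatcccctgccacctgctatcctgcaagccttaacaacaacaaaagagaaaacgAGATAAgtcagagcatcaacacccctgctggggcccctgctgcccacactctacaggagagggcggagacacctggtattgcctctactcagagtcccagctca
Cd79a had 1 ETS match, 55 bases before the start. Cd3e had 2, at 224 and 17 bases, and the nearer one lies outside the printed stretch. Cd3d had 1 at 198 bases, and Cd3g had none and 1 GATA match. Of all 32851 windows of this length in the table, 29.5% held the ETS motif and 9.99% the GATA motif, so matches were found widely. Of the 34 genes 22 had a window, and 11 of them held the ETS motif, 2 the GATA motif and 3 the E-box CAGCTG, which 13% of all windows held. The octamer core TGCAAAT of immunoglobulin promoters, held by 3.56% of all windows, was in none of the 22. A match is a match of letters and was not tested as a binding site.

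Surface receptors of B cells had fewer counts. Fcmr, the receptor for IgM, had 17, 21 and 29 counts with PBS and 10, 8 and 12 with Rb2, without overlap (-1.06 ± 0.46 SE, edgeR adjusted p = 0.160). Ms4a1, which encodes CD20, had 32, 23 and 39 counts with PBS and 13, 12 and 38 with Rb2 (-0.53 ± 0.51 SE, edgeR adjusted p = 0.515). In CPM its highest library was Rb2 4, at 0.411 against 0.395, 0.238 and 0.399 in PBS 1, 2 and 4. Cd22, an inhibitory receptor of B cells, had 17, 11 and 21 counts with PBS and 11, 0 and 27 with Rb2. Its highest and its lowest library were thus both Rb2 libraries. Cr2, the complement receptor of mature B cells and follicular dendritic cells, had 15 counts in all and was at 0 in 3 libraries.

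Cd37, a tetraspanin abundant in B cells and present on other leukocytes, was the B cell gene with the most counts after Ighm. Its values were 1.02, 0.858 and 0.981 CPM in PBS libraries and 0.697, 0.460 and 0.735 CPM in Rb2 libraries, without overlap (-0.60 ± 0.30 SE, edgeR adjusted p = 0.213). Pax5, the transcription factor that fixes B cell identity, had 32, 17 and 26 counts with PBS and 23, 2 and 17 with Rb2 (-0.79 ± 0.69 SE). Blk, a kinase of B cell receptor signalling, had 14 counts over the PBS libraries and 2 over the Rb2 libraries. In 7 of the 9 tested B cell genes the lowest of the 6 libraries was Rb2 3, and in 7 of the 9 the highest Rb2 library was Rb2 4.

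The immunoglobulin genes differed from each other in which library was highest. Ighm, the constant region of the IgM heavy chain (gene 16019; chromosome 12, 113418826 to 113422730), was by far the most abundant lymphocyte transcript, also per length, at 6.40 CPM per kb of exon with PBS against 0.445 for Cd79b. It had 1763, 779 and 625 counts with PBS and 389, 504 and 397 with Rb2. In CPM this was 21.7, 8.06 and 6.39 against 4.59, 6.11 and 4.29, so the groups did not overlap. PBS 1 stood apart at 21.7 CPM, while PBS 4 and Rb2 3 were close to each other. The fold change did not pass in edgeR (-1.27 ± 0.52 SE, adjusted p = 0.171), and it was -0.53 on the log2 scale without PBS 1.

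Ighd, the IgD heavy chain constant region, lies just beside Ighm (chromosome 12, 113407535 to 113416324), and mature naive B cells splice both from 1 primary transcript. It had 11, 17 and 45 counts with PBS and 8, 7 and 16 with Rb2 (-1.12 ± 0.61 SE, edgeR adjusted p = 0.244). PBS 1, highest in Ighm, was lowest of the PBS libraries in Ighd, and PBS 4 was the reverse. The ratio of Ighm to Ighd counts was 160 in PBS 1, 45.8 in PBS 2 and 13.9 in PBS 4. For Rb2 1, 3 and 4 it was 48.6, 72.0 and 24.8. Igkc, the kappa light chain constant region, is no member but pairs with these heavy chains. It had 113, 98 and 235 counts with PBS and 89, 157 and 138 with Rb2 (-0.11 ± 0.36 SE, edgeR adjusted p = 0.856), with PBS 4 rather than PBS 1 at the top.

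Jchain, which joins IgM and IgA into polymers, had 55, 36 and 64 counts with PBS and 42, 103 and 78 with Rb2. Rb2 3, the lowest library for most B cell genes, was the highest for Jchain, and the groups overlapped (0.60 ± 0.41 SE, edgeR adjusted p = 0.344). Mzb1, a chaperone of antibody folding in the endoplasmic reticulum, was at 0 in 3 libraries and at 29 of its 40 counts in PBS 2. It shares 57.2% of its exon bases with the neighbouring gene SPATA24 in GENCODE M21, so these reads need not be its own.

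**Figure D2:**
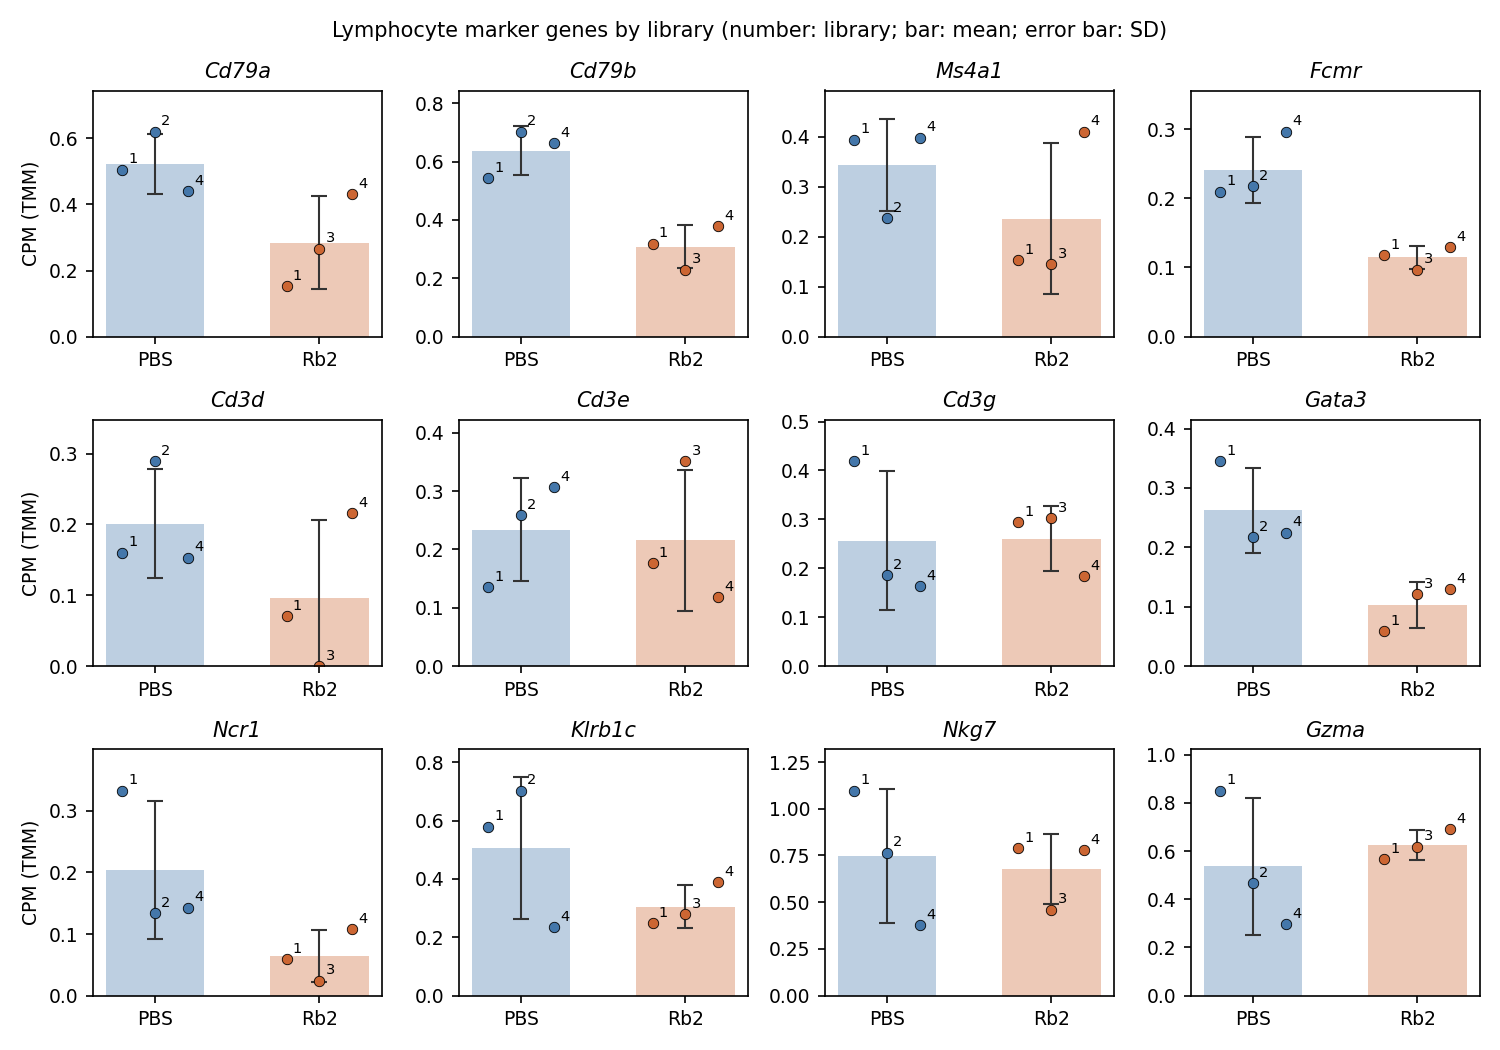
Expression of 12 lymphocyte genes in TMM-normalised CPM on the vertical axis, by group on the horizontal axis; points are libraries with their number, bars are means and error bars SD of 3 libraries. Cd79b, Fcmr, Gata3 and Ncr1 have every Rb2 library below every PBS library, while Cd3e, Cd3g, Nkg7 and Gzma overlap.

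Of 11 tested T cell genes, 9 had a fold change below 0 and 2 above it, with a median of -0.25 on the log2 scale. The summed expression of the 13 genes was 3.64, 3.03 and 2.64 CPM in PBS 1, 2 and 4. In Rb2 1, 3 and 4 it was 2.30, 2.36 and 2.60 CPM. The groups did not overlap, but PBS 4 and Rb2 4 differed by less than their counting error (2.33 to 2.98 and 2.29 to 2.95 CPM). The group means were 3.10 ± 0.504 and 2.42 ± 0.160 CPM (SD, n = 3 each), a difference of -21.9%.

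The 3 CD3 chains, which are neighbours on chromosome 9 between 44969572 and 45009663, differed in which library was highest. Their counts were few, and whether the chains differed from each other beyond counting error was not tested. Cd3e had 11, 25 and 30 counts with PBS and 15, 29 and 11 with Rb2, and the groups overlapped (-0.13 ± 0.54 SE, edgeR adjusted p = 0.899). Cd3g had 34, 18 and 16 counts with PBS and 25, 25 and 17 with Rb2 (0.03 ± 0.50 SE, edgeR adjusted p = 0.974), a value that turned to -0.0413 on the log2 scale with library size alone as scaling. Cd3d had 13, 28 and 15 counts with PBS and 6, 0 and 20 with Rb2 (-1.04 ± 0.90 SE, edgeR adjusted p = 0.466). In Rb2 3 Cd3d was thus at 0 while Cd3e and Cd3g had 29 and 25 counts.

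Co-receptors and early signalling genes gave a like picture. Cd4, which marks helper T cells and is found on some macrophages, had 36, 22 and 29 counts with PBS and 32, 53 and 23 with Rb2 (0.39 ± 0.46 SE). Cd8a, the alpha chain of the cytotoxic T cell co-receptor, had 15, 13 and 12 counts with PBS and 8, 16 and 12 with Rb2 (-0.08 ± 0.52 SE). Its partner Cd8b1, restricted to T cells, had 21, 17 and 14 counts with PBS and 11, 4 and 8 with Rb2, without overlap (-1.11 ± 0.57 SE, edgeR adjusted p = 0.219). Lck, the kinase that starts T cell receptor signalling, was at 0.462 ± 0.135 CPM in the PBS group and 0.440 ± 0.175 CPM in the Rb2 group (SD, n = 3 each), means closer to each other than 1 SD.

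Adhesion, costimulation and survival genes overlapped between the groups as well. Cd2, an adhesion receptor of T and NK cells, had 46, 51 and 18 counts with PBS and 25, 21 and 31 with Rb2 (-0.52 ± 0.47 SE). Cd28, the costimulatory receptor, had 32, 10 and 30 counts with PBS and 12, 7 and 19 with Rb2 (-0.88 ± 0.60 SE). Il7r, the interleukin-7 receptor, had 84 counts in all (-0.25 ± 0.59 SE). Cd5, an inhibitory receptor of T cells, had 55 counts in all, with 8, 8 and 18 in the PBS libraries and 8, 2 and 11 in the Rb2 libraries.

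Of the lineage regulators, Gata3 was lower in every Rb2 library and Foxp3 was near 0. Gata3, a transcription factor of helper T cells and innate lymphoid cells, had 28, 21 and 22 counts with PBS and 5, 10 and 12 with Rb2. The means were 0.262 ± 0.0719 and 0.103 ± 0.0386 CPM (SD, n = 3 each; -1.33 ± 0.51 SE, edgeR adjusted p = 0.121). Cells other than lymphocytes also express it. Foxp3, the regulator of regulatory T cells, had 7 and 5 counts in PBS 2 and PBS 4 and was at 0 in the other 4 libraries. Its exons overlap those of Flicr and Ccdc22.

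**Figure D3:**
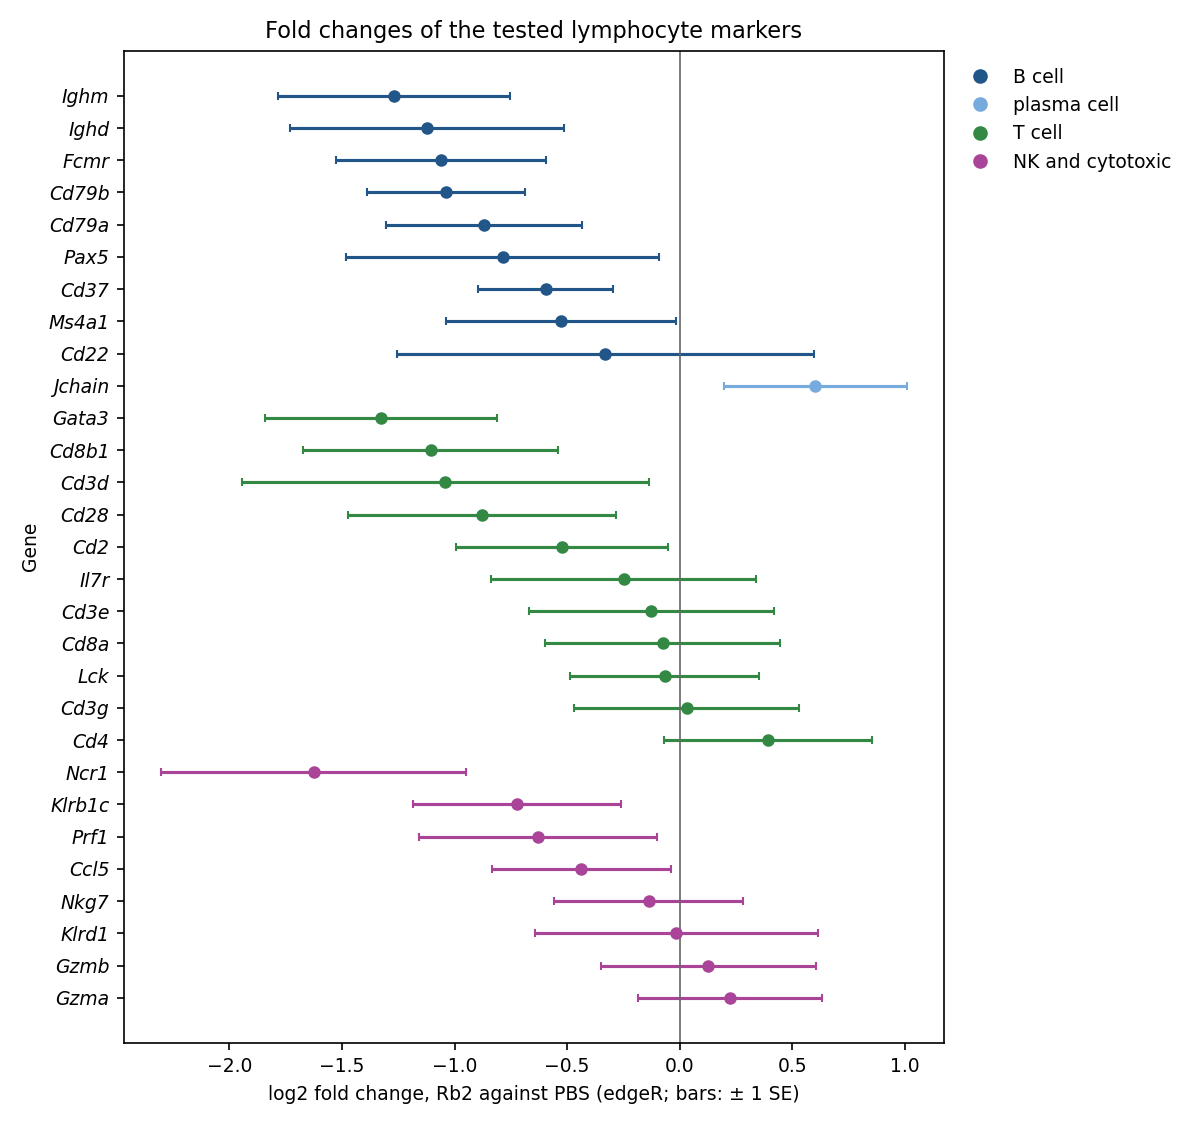
Log2 fold change of Rb2 against PBS on the horizontal axis for the 29 tested lymphocyte genes, by lineage, with bars of 1 SE from edgeR. All 9 B cell genes lie below 0, while T and NK genes lie on both sides, and none passed the threshold.

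NK and cytotoxic genes differed more among the PBS libraries than between the groups. Their summed expression was 5.01, 4.46 and 1.96 CPM in PBS 1, 2 and 4. It was 3.62, 2.70 and 3.20 CPM in Rb2 1, 3 and 4, so all Rb2 libraries lay within the PBS range. PBS 4 was lowest of the PBS libraries in 7 of the 8 genes and the lowest of all 6 libraries in 6 of them. PBS 1 and PBS 2, with the higher NK sums, were also the libraries with the most muscle transcripts, and the part of muscle in this was not tested. The median fold change was -0.29 on the log2 scale over the 8 genes. Without PBS 1 and PBS 2 it was 0.70, a value against PBS 4 alone, the library just described as lowest.

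Ncr1, which encodes the activating NK receptor NKp46 (gene 17086; chromosome 7, 4337715 to 4345184), had 27, 13 and 14 counts with PBS and 5, 2 and 10 with Rb2. The groups did not overlap, and the fold change did not pass (-1.62 ± 0.68 SE, edgeR adjusted p = 0.143). Klrb1c, the NK1.1 antigen, had 47, 68 and 23 counts with PBS and 21, 23 and 36 with Rb2 (-0.72 ± 0.46 SE). Klrd1, which encodes CD94, had 26, 19 and 5 counts with PBS and 17, 17 and 14 with Rb2 (-0.01 ± 0.63 SE).

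The granule genes showed no shift that could be told from the spread. Gzma, granzyme A, had 0.851, 0.465 and 0.296 CPM in PBS libraries against 0.567, 0.618 and 0.692 CPM in Rb2 libraries (0.22 ± 0.41 SE), so its highest and its lowest value were both in PBS libraries. Gzmb, granzyme B, had 42, 44 and 23 counts with PBS and 60, 28 and 25 with Rb2 (0.13 ± 0.48 SE). Prf1, the pore former perforin, had 27, 26 and 13 counts with PBS and 17, 8 and 16 with Rb2 (-0.63 ± 0.53 SE). Nkg7, a protein of cytotoxic granules, averaged 0.747 ± 0.360 CPM in PBS libraries and 0.677 ± 0.187 CPM in Rb2 libraries (SD, n = 3 each). Ccl5, a chemokine of activated T and NK cells, had 79, 142 and 48 counts with PBS and 72, 56 and 59 with Rb2 (-0.44 ± 0.40 SE).

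Over the 6 libraries the sum of all B cell genes and that of all T cell genes had Pearson r = 0.943 and Spearman rho = 0.943, with r = 0.860 without PBS 1 and 0.901 for deviations from the group means, which remove the difference between Rb2 and PBS. These are descriptions of 6 libraries that share depth and tissue makeup, and sums over chosen genes were not tested. Ighm supplies most of the B cell sum. With Ighm left out, r was 0.643 (rho 0.771), and for deviations from the group means it was 0.0569. With the narrower sets of 7 B cell and 6 T cell genes, r was 0.820 pooled and 0.615 for deviations from the group means. Taking the mean log2 CPM of the genes in place of their sum, which gives each gene the same weight, r was 0.906 for all B and T cell genes, 0.830 without Ighm and 0.952 for the narrower sets.

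The individual libraries show where the signals part. PBS 4 had the highest B cell sum without Ighm and the lowest T cell sum of the PBS libraries, with a B to T ratio of 1.46 against 0.959 in PBS 1 and 1.03 in PBS 2. Rb2 4 had the highest B and the highest T sum of the Rb2 libraries, with a ratio of 1.07. Rb2 3 had the lowest B cell sum of all, at a T cell sum close to that of Rb2 1, and its ratio was 0.554 against 0.862. The mean ratio was 1.15 ± 0.269 with PBS and 0.830 ± 0.262 with Rb2 (SD, n = 3 each), and the groups overlapped.

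NK and T sums had r = 0.741 (rho 0.486), and r = 0.803 for deviations from the group means. Without PBS 1, the highest in both, r was 0.449. NK and B cell sums without Ighm had r = 0.157 (rho 0.0857), and r = 0.854 without PBS 4, the library with the highest B and the lowest NK sum.

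**Figure D4:**
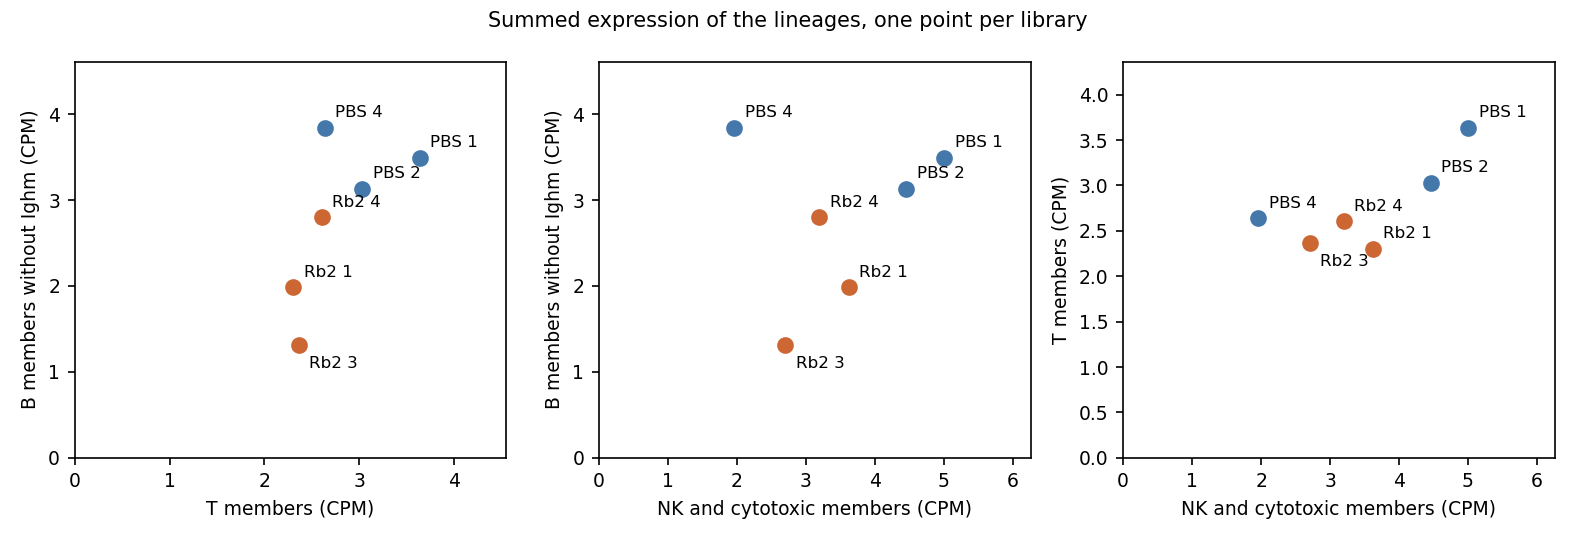
Summed expression in TMM-normalised CPM of B cell genes without Ighm against T cell genes, of B cell genes against NK and cytotoxic genes, and of T cell genes against NK and cytotoxic genes, with 1 point per library. PBS 4 lies apart in the plots with NK genes, at 1.96 CPM of NK and 3.84 CPM of B cell transcripts.

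For 1 gene of each lineage the relation was tested across the 6 libraries on log2 CPM. Cd79a and Cd3e had r = -0.0630 (exact two-sided permutation p = 0.918) and rho = -0.0857 (exact p = 0.919), and r = 0.294 without Rb2 1 and Rb2 3, the libraries farthest from the median of Cd79a. Cd79a and Ncr1 had r = 0.675 (exact permutation p = 0.144) and rho = 0.771 (exact p = 0.103), and r = 0.172 without the same 2 libraries. Cd3e and Ncr1 had r = -0.510 (exact permutation p = 0.322) and rho = -0.314 (exact p = 0.564), and r = -0.297 without Rb2 3 and Rb2 4. Adjusted over the 3 pairs by the Benjamini-Hochberg method, the p-values of r were 0.918, 0.433 and 0.483, and those of rho 0.919, 0.308 and 0.846. For deviations from the group means, r was -0.262 for Cd79a and Cd3e, 0.258 for Cd79a and Ncr1, and -0.985 for Cd3e and Ncr1. Exact two-sided permutation within groups gave p = 0.833, 0.889 and 0.0556 (adjusted over the 3 pairs 0.889, 0.889 and 0.167). With 36 arrangements the smallest p this test can give is 0.0278, and it was added after seeing the data.

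Genes of 1 lineage varied together to different degrees. Over the 6 libraries the median r of log2 CPM between 2 tested B cell genes was 0.607 (36 pairs, 35 of them above 0), and between 2 NK and cytotoxic genes 0.622 (28 of 28 above 0). Between 2 T cell genes the median r was 0.1002 (55 pairs, 33 above 0), with quartiles of -0.227 and 0.491. T cell genes thus had a lower median r with each other than with B cell genes. Between a B and a T cell gene the median r was 0.353 (99 pairs, 68 above 0), and between a B and an NK gene 0.177 (72 pairs, 45 above 0). The pairs share their libraries, and most of these genes have few counts, so weak values are not read further.

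Other genes of the same lineages, taken from fixed lists, gave few calls. Of 18 tested B cell genes outside the 34, 1 was higher and 0 were lower, with a median fold change of -0.46 on the log2 scale. The one that rose was Ebf1, a factor of early B cells that adipocyte precursors also use, from 42.7 ± 7.64 to 79.3 ± 20.8 CPM (SD, n = 3 each; edgeR adjusted p = 0.0367). The call was lost without any 1 of PBS 1, PBS 2, PBS 4, Rb2 1 or Rb2 3, with an adjusted p of up to 0.135. It was also lost with a covariate of muscle genes, an offset for GC content and length, or a replicate block on column numbers. That block takes PBS 2 and Rb2 3 out of the comparison, so a call lost with it says little about stability. Cd72, an inhibitory co-receptor (-0.91, edgeR adjusted p = 0.0964), and Ciita, the regulator of MHC class II genes (-0.90, edgeR adjusted p = 0.0971), did not pass.

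Of 15 tested T cell genes outside the 34, 1 fell and 0 rose, with a median of -0.75 on the log2 scale. Thy1, which marks T cells and also stromal cells, fell from 7.30 ± 0.741 to 3.82 ± 0.735 CPM (SD, n = 3 each; -0.93 ± 0.19 SE, edgeR adjusted p = 0.0191). That call was lost without PBS 1, PBS 2, Rb2 1 or Rb2 3, with an adjusted p of up to 0.0792, and with a replicate block. Il2rb, an interleukin-2 receptor chain of T and NK cells (-0.92, edgeR adjusted p = 0.114), and Cd27, a costimulatory receptor (-1.96, edgeR adjusted p = 0.137), did not pass. Of 10 further NK genes edgeR, DESeq2 and limma-voom called 0, with 1 at an unadjusted p under 0.05 in edgeR (Il2rb again), and their median was -0.18. Of 10 genes of antibody secretion 1 rose. That was Prdm1, which encodes the plasma cell regulator BLIMP-1 and is expressed beyond lymphocytes, from 0.428 ± 0.189 to 2.11 ± 1.12 CPM (SD, n = 3 each; 2.29 ± 0.51 SE, edgeR adjusted p = 0.0290). Only leaving out Rb2 1 kept this call among the 6 libraries left out in turn, the highest adjusted p being 0.107. DESeq2 also called Prdm1, while limma-voom and the fit with a replicate block did not.

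Markers of other cells also moved, and their part in the lymphocyte values was not tested. Of all tested genes, 5.11% were lower at an edgeR adjusted p under 0.05 and 14.6% at an unadjusted p under 0.05. Of 12 pan-leukocyte genes 1 fell, with sums of at least 52.0 CPM in every PBS library and at most 47.6 CPM in every Rb2 library. It was Laptm5, a lysosomal protein of leukocytes (-0.81 ± 0.20 SE, edgeR adjusted p = 0.0339), while Ptprc, which encodes CD45, did not pass (-0.31 ± 0.25 SE, edgeR adjusted p = 0.434). At an unadjusted p under 0.05 edgeR had 7 of the 12, all of them lower with Rb2, and DESeq2 called 4. Of 15 tested macrophage and monocyte genes 4 fell (Csf1r and the complement genes C1qa, C1qb and C1qc), with sums of 143 to 183 CPM and 105 to 135 CPM. Of 8 tested dendritic cell genes 1 fell, Irf8, which B cells also express (-0.88, edgeR adjusted p = 0.0419), with sums of 32.6 to 34.8 CPM and 17.9 to 27.1 CPM. Zbtb46 supplied most of the dendritic cell sums, with means of 28.0 CPM with PBS and 19.2 CPM with Rb2. Flt3 and Xcr1 were above 0 (0.20 and 0.40 on the log2 scale), and the other tested genes of that list below it.

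Of 9 tested red cell and platelet genes 4 fell, all of them globins, with sums of 1044 to 1458 CPM with PBS and 483 to 799 CPM with Rb2. Hba-a1 went from 336 ± 52.6 to 160 ± 37.5 CPM (SD, n = 3 each; edgeR adjusted p = 0.0142). Of 12 endothelial genes 6 fell, with sums of 1872 to 2094 CPM and 1015 to 1486 CPM, and of 6 lymphatic endothelial genes 1 fell, Flt4, with sums of 19.8 to 27.9 CPM and 12.0 to 20.0 CPM. Among all these calls of other cell types, those of C1qc, Cldn5 and Eng held without each library in turn, and each of the others was lost without at least 1 library. Within the Rb2 group the highest library for B cell (without Ighm), T cell, globin, endothelial and lymphatic sums was Rb2 4.

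**Figure D5:**
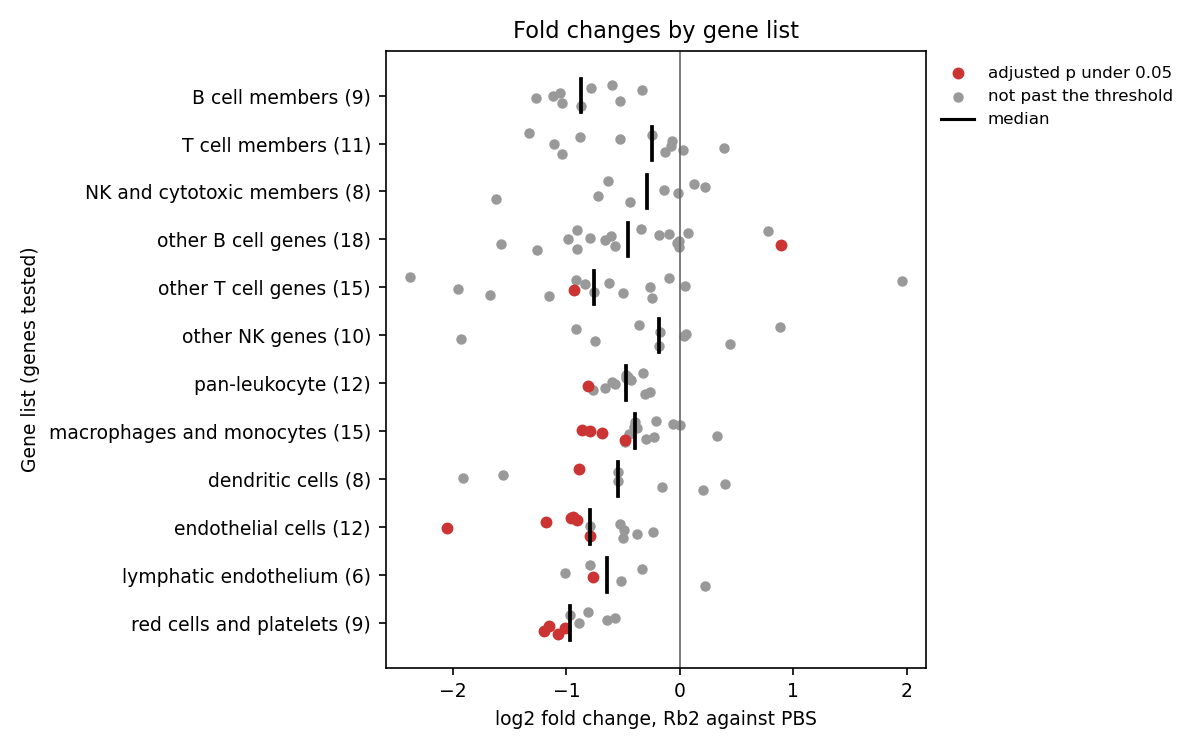
Log2 fold change of Rb2 against PBS on the horizontal axis for the tested genes of 12 of the 22 lists, chosen after the values were seen, with a black line at each list's median and red points for genes past the adjusted threshold. The medians of the 12 lists lie below 0, and no red point is among the B, T and NK members; of the lists not drawn, plasma cell members (0.60) and thymocytes and progenitors (1.14) have medians above 0.

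Several markers of lymphoid organs were at 0. Of 12 genes of lymph node and follicle stroma in the table, 5 were tested and edgeR, DESeq2 and limma-voom called 0, with 0 at an unadjusted p under 0.05. Among the others Glycam1, Tnfsf11 and Chst4 were at 0 in all 6 libraries, and Madcam1 had 2 counts in 1 library. Ccl21a, a chemokine of lymphatic vessels and lymph node stroma, had 4, 150 and 381 counts with PBS and 69, 30 and 293 with Rb2, and was highest in PBS 4 within its group and in Rb2 4 within the other. Other genes of the list were lowest of the PBS libraries in PBS 4, among them the follicle chemokine Cxcl13, with 54, 64 and 25 counts, Ccl19, with 9, 11 and 4, and Clu, with 2348, 3359 and 1637. These genes were named after their values were seen. Of the 8 genes of thymocytes and lymphocyte progenitors, Rag1, Rag2, Dntt, Ptcra and Igll1 were at 0 in all libraries. The 3 others, Cd1d1, Vpreb1 and Themis, were tested and lay above 0 (0.24, 1.14 and 1.96 on the log2 scale), and edgeR called 0 of them. Vpreb1 had 0, 13 and 6 counts with PBS and 4, 17 and 18 with Rb2, and Themis 10, 0 and 0 against 17, 6 and 17. Cd1d1, with far more counts, was higher in every Rb2 library than in every PBS library. Neutrophil genes gave 0 calls among 3 tested in edgeR, DESeq2 and limma-voom, with sums of 1.57 to 1.92 CPM with PBS and 0.873 to 2.29 CPM with Rb2, and mast cell and basophil genes 0 among 6 in edgeR and 1 in DESeq2, with 8.46 to 11.8 CPM and 11.2 to 15.8 CPM. At an unadjusted p under 0.05 there was 1 gene among these 9, Kit, at 0.72 on the log2 scale. Kit supplied most of the mast cell and basophil sums, with means of 5.70 CPM with PBS and 9.40 CPM with Rb2. Hdc was also above 0 (0.25), while Cpa3, Mcpt4, Tpsb2 and Cma1 were below it (-0.25, -0.53, -0.47 and -0.60). The median of that list was -0.36.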

How the data were processed

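The values are raw read counts, 1 row a gene, as the authors deposited them (whole numbers, named read counts in the file headers). The submitters' processing notes name mm10 and the tools StringTie, Bowtie2, HISAT2 and Trimmomatic, and per the labels' protocols the libraries were poly(A)-selected and strand-marking. The counting program and its use of strand: not given in the sources used here. Columns were matched to groups by name, and their numbers do not match those in the sample titles.

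Genes kept by filterByExpr (count minimum 10, total minimum 15) were tested with edgeR (4.0.16, R 4.3.3) on the counts, with TMM factors, robust dispersions and Benjamini-Hochberg adjustment over all 16707 genes tested (threshold 0.05). CPM values are TMM-normalised. Each SE was taken as the absolute log2 fold change over the root of its F statistic. The script was tested on simulated data, with 100 genes changed 2-fold and 100 changed 4-fold among all 16707. It recovered 35 and 81 of them, and 9 of its 125 calls were of unchanged genes. Most 2-fold changes were thus missed, over genes of all count levels. DESeq2 (1.42.0) and limma-voom (3.58.1) were alternatives, besides other scalings and filters, each library left out, a block on the column numbers, a covariate of muscle genes, and an offset for GC content and length (splines with 5 degrees of freedom, GENCODE M21 transcripts, values for 93.6% of tested genes). Correlations between single genes used exact permutation of pairings. Logs of CPM for other correlations used a pseudocount of 0.1. Poisson intervals cover counting error only.

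The 34 genes, the lists and the tests were chosen with earlier results of these data known. The rule for named genes took every member past the threshold, the 4 of each lineage with the highest mean CPM, up to 3 genes of every other list with the smallest p, and Ucp1. All other members are accounted for by their counts, and genes outside the rule were named after their values were seen. Leaving out PBS 1 and PBS 2 together, and the correlations of deviations from group means tested within groups, were added after seeing the data. Motif windows were read from the RefSeq promoter table, and exon lengths and overlaps from GENCODE M21, both on GRCm38, the assembly that mm10 stands for. P-values of fold changes set the difference between the groups against the spread between these libraries, with information shared across genes. Those of correlations count arrangements of the libraries.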

Additional observations from a re-analysis of the deposited data

How the results depend on the processing

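No lymphocyte gene passed in any edgeR or limma setting at an adjusted p under 0.05. At an adjusted p under 0.1 there was 1 (Cd79b, 1757 genes higher and 1635 lower in all), and the DESeq2 Wald test called 1 (Ighm; 1672 and 1623 in all). DESeq2 gave no adjusted p for Fcmr, Gata3 and Ncr1, nor for other genes with few counts, among them Ighd, Cd22 and Cd3d. The adjusted p of Cd79b ran from 0.0795 to 0.526 over the alternatives. Against 890 higher and 853 lower genes, library size alone gave 492 higher, the muscle covariate 422 and 472, the GC and length offset 516 lower, and leaving out 1 library 121 to 1200 higher and 181 to 1069 lower. Without PBS 1 and PBS 2 edgeR called 0 and 0 of all genes, with 2063 at an unadjusted p under 0.05, but this leaves 1 PBS library, assumed to vary like the Rb2 libraries, and says nothing about stability.

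The replicate block on column numbers, of which both groups carry 1 and 4, left 42 higher and 54 lower genes. PBS 2 and Rb2 3 share their number with no other library, so the block took them out of the comparison. It also left very little residual freedom, so values and lost calls under the block say little about stability. Deviations from the group means had r = -0.176 for number 1 and -0.186 for number 4. Libraries of unlike number had r from -0.458 (PBS 2 with Rb2 1) to 0.481 (PBS 4 with Rb2 1). With 3 libraries in each group, these values cannot show whether the shared numbers pair the libraries.

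With 1 library left out the median fold changes ran from -1.19 (without Rb2 4) to -0.54 (without PBS 1) for B, -0.64 to -0.25 for T and -0.63 (without PBS 4) to -0.0545 (without PBS 1) for NK genes. The T median was -0.52 without a filter and -0.49 without PBS 1 and PBS 2. The NK median was 0.18 with the block, 0.00104 with the muscle covariate and 0.70 without PBS 1 and PBS 2. The B to T correlation of 0.943 was 0.820 with the narrower sets, 0.868 with library size CPM, 0.566 without Ighm and Il7r, and 0.860 to 0.980 with 1 library left out. Cd79a against Cd3e was 0.0497 with library size CPM and 0.294 without the 2 farthest libraries.

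Of 499 fold changes of single genes under alternatives, 48 changed sign, in 16 genes, none of which was beyond 0.72 in size in the main test. With 1 library left out the ranges of such genes were -1.44 to 0.24 for Cd22, -0.66 to 0.17 for Cd3e, -0.23 to 0.57 for Cd3g, -0.0391 to 0.69 for Cd4, -0.38 to 0.14 for Cd8a, -0.40 to 0.19 for Lck, -0.71 to 0.0553 for Il7r, -0.49 to 0.58 for Klrd1, -0.48 to 0.24 for Nkg7, -0.0871 to 0.71 for Gzma and -0.40 to 0.37 for Gzmb. With the block Jchain was at -0.0357, Cd3g -0.19, Cd4 -0.24, Lck 0.34, Il7r 0.35, Ccl5 0.0858, Klrd1 0.30 and Nkg7 0.27. With the muscle covariate Cd8a was at 0.10, Lck 0.14, Klrd1 0.54 and Nkg7 0.11. Without PBS 1 and PBS 2 Cd8a was at 0.18, Lck 0.52, Cd2 0.68, Ccl5 0.56, Klrb1c 0.38, Klrd1 1.84, Nkg7 0.84 and Prf1 0.24. With the offset Cd3g was at -0.18, Lck 0.10 and Nkg7 0.14. Cd3g was at -0.0037 with upper-quartile factors and -0.0413 with library size alone, and Klrd1 at 0.33 in limma-voom. The cause of these changes was not tested. Counts under 300 over 6 libraries limit most of these genes.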
